A study of Homo sapiens with 2 samples.

Results

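The genes described here encode the enzymes that build cholesterol and fatty acids from acetyl-CoA, together with the proteins that regulate sterol synthesis, in cells given a short hairpin RNA (shRNA) against cMyc. They were 46 genes listed by symbol, and their values were taken from the probe sets that GEO's platform annotation gives that single symbol, with the probe set of highest mean over both arrays standing for a gene. Of the 46 genes, 38 were named on the array, out of 14884 named genes in all, and 36 were measured, meaning that their mean level over both arrays reached 3.70, the median of the whole table. HSD17B12 and ACSL5 lay below that level. FDFT1, LSS, CYP51A1, SC5D, ME1, ACSL3, GPAM and AGPAT5 had no named probe set and were not analysed here.

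RNA came from HT1080, an established human fibrosarcoma cell line, harvested 48 hours after infection with shRNA virus. One culture received an shRNA against cMyc and the other a non-targeting control shRNA, with 1 Affymetrix Human Gene 2.0 ST array for each. The labels give no hairpin sequence, no second hairpin and no uninfected cells. MYC, the target, read 6.16 on the cMyc shRNA array, against 7.09 on the control shRNA array, on the log2 scale, a difference of -0.93.

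With 1 array per condition there was no spread between replicates, no test was possible and no p-value is given, so every difference describes these 2 arrays. All values are log2 levels, and all differences are cMyc shRNA minus control shRNA. A technical SD of 0.34 for a single difference was estimated from the disagreement between the 2 brightest measured probe sets of 416 genes. Both were read on the same 2 arrays, so this SD leaves out variation between cultures and any error the probe sets share. The SD was 0.36 over the 372 genes whose 2 probe sets did not give identical differences. The array medians were 3.73 for the cMyc shRNA array and 3.68 for the control shRNA array. Of 10 mesenchymal markers 5 were measured, from -0.59 for VIM to 0.36 for THY1. VIM read 9.34 on the cMyc shRNA array and 9.94 on the control shRNA array. The collagens among these markers, COL1A1, COL1A2 and COL3A1, had no named probe set. Of 7 epithelial markers 4 were measured, with KRT18 lowest at -0.69 and CLDN7 highest at 0.53. Of 6 liver markers 2 were measured, TTR at 0.39 and APOA1 at 0.24, while ALB lay below the level filter, and of 6 adipocyte markers only PLIN1 was measured, at 3.79 on each array. The part of these markers in the lipid gene differences was not tested.

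Cholesterol synthesis joins acetyl-CoA units into mevalonate, turns mevalonate into isoprenoids and squalene, and closes squalene into a sterol that is trimmed to cholesterol. Fatty acid synthesis carboxylates acetyl-CoA to malonyl-CoA and extends the chain to palmitate, which is then elongated and desaturated. Many of these enzymes are transcribed under the SREBP factors, which SCAP escorts out of the endoplasmic reticulum when sterols are low and INSIG proteins hold back when sterols are high. In proliferating tumour cells both pathways supply membrane lipid, and MYC and SREBP family factors can each bind E-box sequences. Each promoter printed here is the 250 bases before the gene start from RefSeq, build GRCh38.p14, written 5′ to 3′ on the gene's strand. Capitals mark, on either strand, matches to the E-box CACGTG, to the sterol regulatory element core TCACNCCAC, and to CCAAT, the box bound by NF-Y, a factor that works beside SREBP at sterol genes.

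Most of the lipid synthesis genes read lower with the cMyc shRNA, and none was 1.5-fold higher. The gene list was chosen with earlier results of these data known, so the shares below describe it and are no independent support. Of the 36 measured genes 29 were below 0 (80.6%), against 51.3% of the 10258 measured genes on the array, and their median difference was -0.44, or 1.35-fold lower, against a median of -0.01 over all measured genes. FASN, FADS1, SCD and MVD were at least 2-fold lower, which is 4 of 36 (11.1%), where 4.0% of all measured genes were. At least 1.5-fold lower were 13 of 36 (36.1%), against 11.9% of all measured genes. In the upward direction 0 of 36 reached 2-fold, where 2.01% of all measured genes did, and 0 reached 1.5-fold, where 8.77% did. MVD at -1.10 lay just past the 2-fold limit and ACACA at -0.84 just short of it. A total of 14 of the 36 differences were smaller than the technical SD of 0.34.

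**Figure D1:**
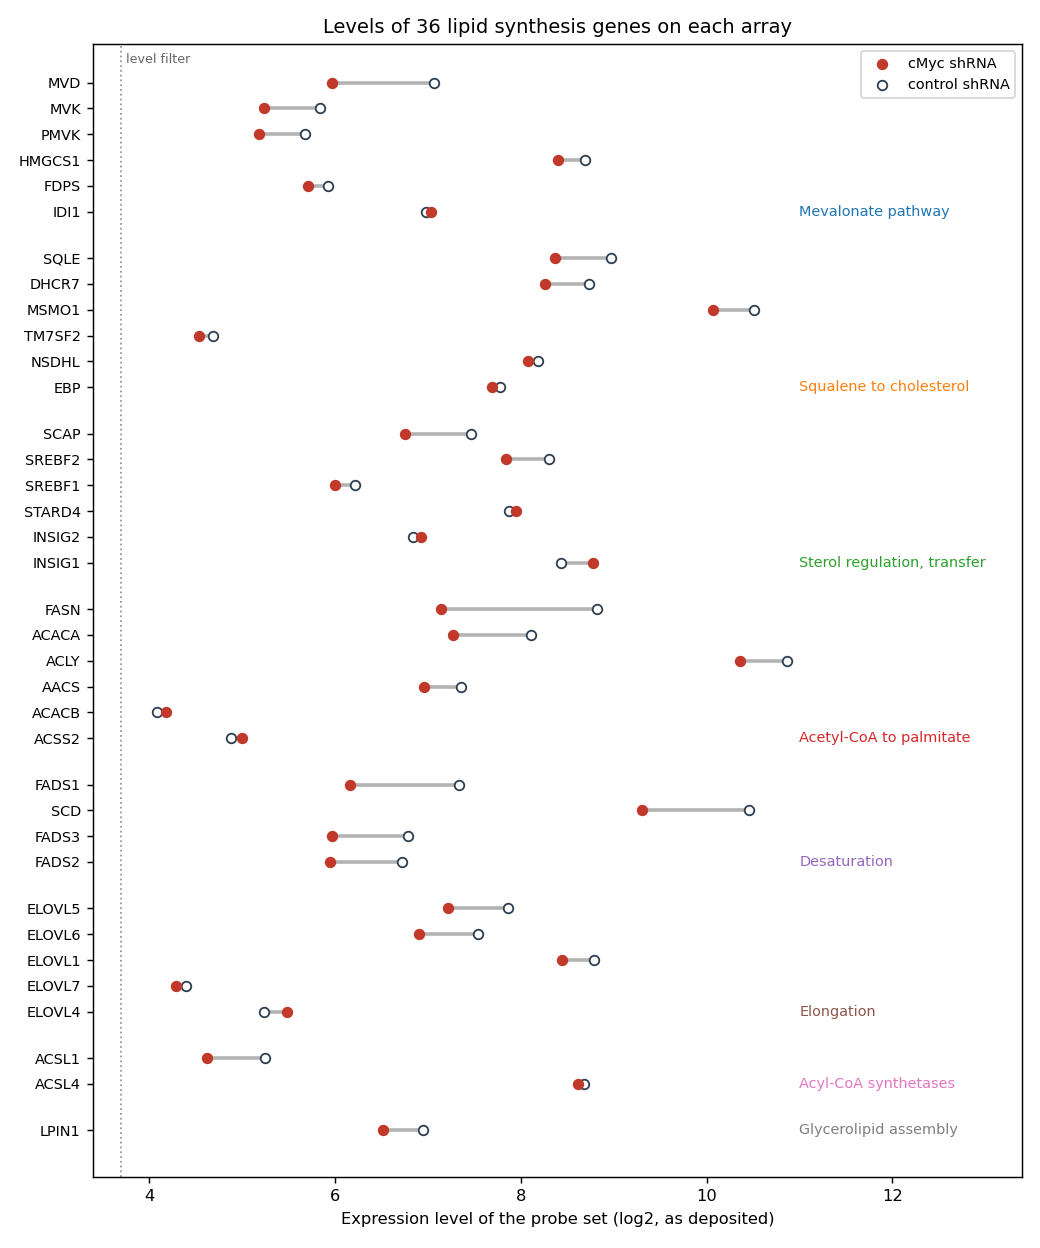
Log2 level of the probe set standing for each of the 36 measured genes (horizontal axis, as deposited), with filled points for the cMyc shRNA array and open points for the control shRNA array, grouped by role and ordered by difference within a role. The dotted line is the level filter at 3.70; the filled point lies left of the open one for 29 genes, most widely for FASN, and levels of different probe sets should not be compared with each other.

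The early, mevalonate part of the sterol pathway was represented by 6 measured genes. Of these 5 were below 0, beside 51.3% of all measured genes. Their median was -0.39, which became -0.25 when the level filter was raised to the 75th percentile. MVD, the decarboxylase that forms isopentenyl pyrophosphate, read 5.97 on the cMyc shRNA array and 7.07 on the control shRNA array, a 2.15-fold lower value and the lowest sterol enzyme. MVK, mevalonate kinase, read 5.24 with the cMyc shRNA and 5.84 with the control shRNA, 1.52-fold lower. PMVK, the kinase that follows it, differed by -0.49. By the brightest probe set of each gene, the 3 consecutive steps from mevalonate to isopentenyl pyrophosphate were the 3 lowest of the group. By the same probe sets the steps on either side lay closer to 0, although PMVK and HMGCS1 differed from each other by less than the technical SD. HMGCS1, which makes the precursor of mevalonate, differed by -0.29. IDI1, the isomerase that follows MVD, read 7.03 with the cMyc shRNA and 6.98 with the control shRNA. FDPS, farnesyl pyrophosphate synthase, had 2 probe sets, with -0.22 on the brighter and -0.55 on the dimmer one, a gap about as wide as the technical SD. The dimmer one lay below PMVK, so the order within the group depends on the probe set used. The MVD promoter (chr16:88663092-88663341, minus strand) is shown as that of the lowest sterol enzyme; it was chosen after the values were seen, and its 3 capital stretches are all CCAAT matches.
MVD: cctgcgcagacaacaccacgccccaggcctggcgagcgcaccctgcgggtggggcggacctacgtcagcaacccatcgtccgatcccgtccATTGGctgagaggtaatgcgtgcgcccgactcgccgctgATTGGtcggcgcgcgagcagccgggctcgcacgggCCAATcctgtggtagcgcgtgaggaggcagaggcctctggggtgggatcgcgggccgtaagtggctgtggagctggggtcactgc

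The later part, from squalene to cholesterol, had 6 measured genes and all 6 were below 0; their median was -0.30 and 0 of them reached 2-fold. SQLE, squalene epoxidase, was lowest, at 8.37 on the cMyc shRNA array and 8.97 on the control shRNA array, 1.52-fold lower. DHCR7, which makes the last reduction to cholesterol, differed by -0.47 and MSMO1, a sterol methyl oxidase, by -0.44. EBP, the sterol isomerase, read 7.69 with the cMyc shRNA and 7.77 with the control shRNA and was nearest to 0. NSDHL, which removes sterol methyl groups together with MSMO1, differed by -0.11, and TM7SF2, a sterol reductase, by -0.16. SQLE, DHCR7 and MSMO1 therefore lay outside the technical SD and the other 3 inside it. Over the 12 measured sterol enzymes the median was -0.36, with 11 below 0 and 3 at least 1.5-fold lower.

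The regulators of the pathway were not all lower. Of 6 measured genes 3 were below 0 and 3 above, where 51.3% of all measured genes were below 0. Their median was -0.07, and 3 of the 6 lay within the technical SD. SCAP, the escort of SREBP, read 6.75 on the cMyc shRNA array and 7.47 on the control shRNA array, 1.64-fold lower. SREBF2, which encodes the SREBP factor that mainly drives sterol genes, differed by -0.46. SREBF1, which encodes the forms with the larger part in fatty acid synthesis, differed by -0.22, within the technical SD. On the other side, INSIG1, the retention protein that is itself a well known SREBP target, read 8.78 with the cMyc shRNA and 8.43 with the control shRNA. Its difference of 0.35 was the highest among the 36 genes, about as large as the technical SD, and 1970 of the 10258 measured genes had a higher one. INSIG2, its paralog, differed by 0.09, and STARD4, a cytosolic sterol carrier, by 0.08, both within the technical SD. The INSIG1 promoter (chr7:155297628-155297877, plus strand) is shown as that of the highest gene, with a CCAAT match on the opposite strand and, 55 to 50 bases before the start, an E-box. The SREBF2 promoter (chr22:41832855-41833104, plus strand), chosen after the matches were seen, is shown because it holds 1 of the 2 sterol element cores found, 133 to 125 bases before the start.
INSIG1: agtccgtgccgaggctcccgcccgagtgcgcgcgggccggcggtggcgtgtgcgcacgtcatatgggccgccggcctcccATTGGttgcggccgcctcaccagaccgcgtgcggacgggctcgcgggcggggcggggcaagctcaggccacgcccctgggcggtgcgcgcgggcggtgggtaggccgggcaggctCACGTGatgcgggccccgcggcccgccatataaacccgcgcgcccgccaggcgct
SREBF2: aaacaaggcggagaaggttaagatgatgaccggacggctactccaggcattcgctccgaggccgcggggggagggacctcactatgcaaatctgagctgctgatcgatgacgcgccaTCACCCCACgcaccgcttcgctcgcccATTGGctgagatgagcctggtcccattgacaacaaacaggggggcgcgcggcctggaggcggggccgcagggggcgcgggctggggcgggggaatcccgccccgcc

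The steps from acetyl-CoA to palmitate held the lowest gene of all. FASN, fatty acid synthase, read 7.14 on the cMyc shRNA array and 8.82 on the control shRNA array, 3.21-fold lower, and 93 of the 10258 measured genes had a lower difference. ACACA, the acetyl-CoA carboxylase that supplies malonyl-CoA for synthesis, read 7.27 with the cMyc shRNA and 8.11 with the control shRNA, 1.79-fold lower. ACACB, the carboxylase isoform whose malonyl-CoA restrains mitochondrial fatty acid uptake, differed by 0.10 and read only 4.18 and 4.08 on the cMyc shRNA and control shRNA arrays, close to the level filter. ACACA thus lay outside the technical SD and ACACB inside it, so no direction can be read for ACACB. No detection call was available for ACACB at that level either. ACLY, which splits citrate into cytosolic acetyl-CoA, differed by -0.50, whereas ACSS2, which makes acetyl-CoA from acetate, read 5.00 with the cMyc shRNA and 4.89 with the control shRNA. AACS, which activates acetoacetate for lipid synthesis, differed by -0.40. The group median was -0.45, with 4 of 6 measured genes below 0, beside 51.3% of all measured genes. FASN was read by 1 probe set, so no second reading of it was available here.

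**Figure D2:**
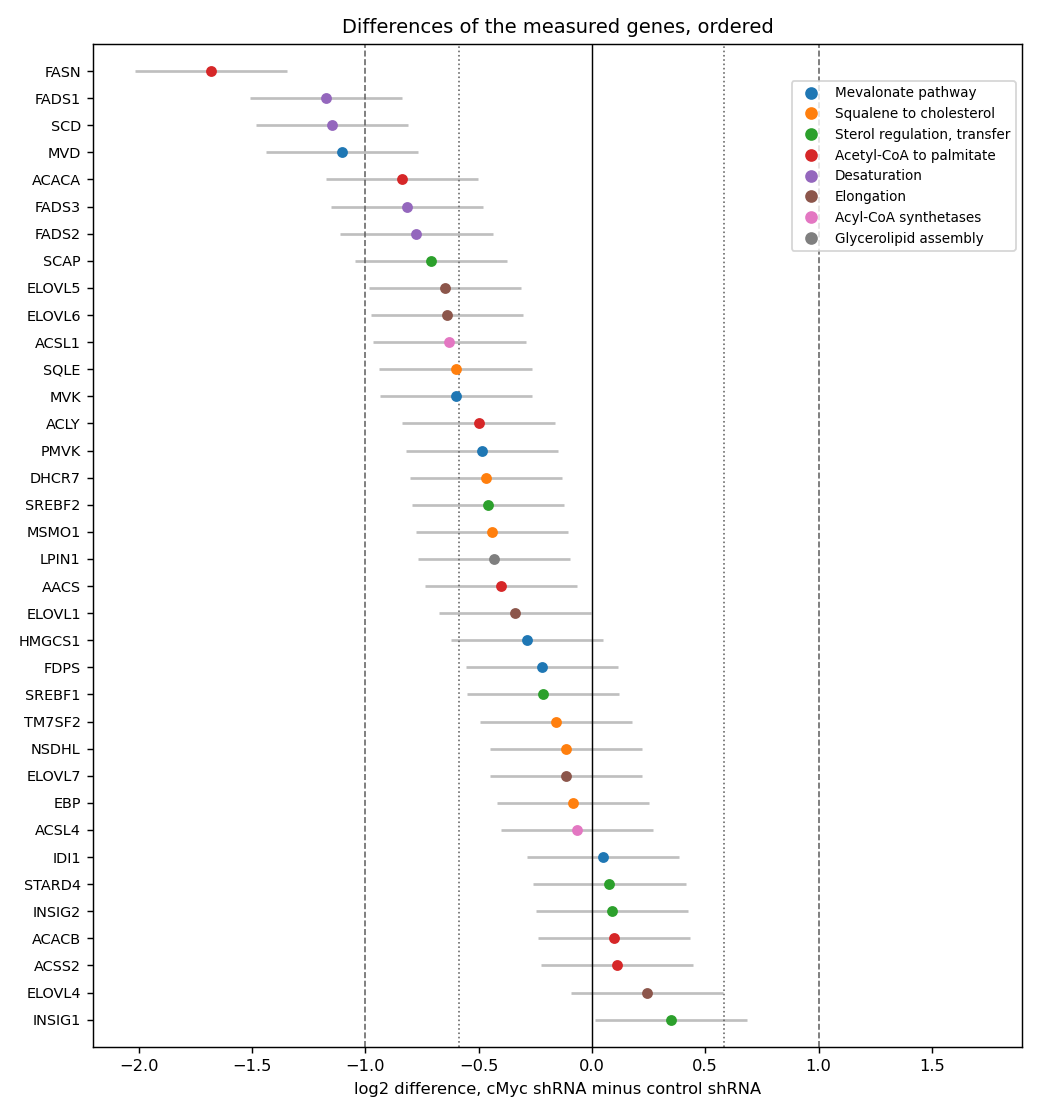
Log2 difference, cMyc shRNA minus control shRNA (horizontal axis), of the 36 measured genes ordered from lowest to highest and coloured by role; bars are ± the technical SD of 0.34, which does not cover variation between cultures. Dashed lines mark 2-fold and dotted lines 1.5-fold; 4 genes lie left of the left dashed line and 0 right of either right-hand line.

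Desaturation was the role in which all measured genes were at least 1.5-fold lower, 4 of 4, with a median of -0.98 (1.98-fold lower). Of all measured genes on the array 11.9% were at least 1.5-fold lower. SCD, which puts the first double bond into saturated fatty acids, read 9.31 on the cMyc shRNA array and 10.5 on the control shRNA array, 2.21-fold lower. Its second probe set differed by -1.33 against -1.15 for the brighter one, so both readings were past 2-fold. FADS1 read 6.16 with the cMyc shRNA and 7.34 with the control shRNA, 2.26-fold lower. FADS2, which with FADS1 makes polyunsaturated fatty acids, read 5.95 with the cMyc shRNA and 6.73 with the control shRNA, 1.71-fold lower. FADS3, a paralog of both, read 5.97 with the cMyc shRNA and 6.79 with the control shRNA, 1.76-fold lower. The 3 FADS genes are not independent in position, since they lie beside each other on chromosome 11. FADS1 and FADS2 lie on opposite strands and, as RefSeq annotates them, overlap at their 5′ ends by 801 bases. The sources used here do not say whether any probe lies in that stretch, so the readings of the pair may not be fully separate.

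The genes next to the FADS cluster were looked up in RefSeq order, a comparison chosen after the values were seen. FEN1, a flap endonuclease of DNA replication that neighbours FADS1, read 6.66 on the cMyc shRNA array and 7.92 on the control shRNA array, a difference of -1.26. TMEM258, beyond FEN1, differed by -0.25, and RAB3IL1, beyond FADS3, by -0.51. MIR1908, whose gene stands between the entries of FADS1 and FADS2 in that order, differed by -0.17. The 7 measured genes of the stretch were thus all below 0, beside 51.3% of all measured genes. The 3 FADS genes and FEN1 were lowest, and whether position had a part in the FADS values was not tested. The FADS1 promoter (chr11:61817004-61817253, minus strand) and the SCD promoter (chr10:100346983-100347232, plus strand) are shown as those of the 2 lowest genes after FASN, which had no promoter to print. FADS1 held no match to the 3 motifs and SCD held 2 CCAAT boxes.
FADS1: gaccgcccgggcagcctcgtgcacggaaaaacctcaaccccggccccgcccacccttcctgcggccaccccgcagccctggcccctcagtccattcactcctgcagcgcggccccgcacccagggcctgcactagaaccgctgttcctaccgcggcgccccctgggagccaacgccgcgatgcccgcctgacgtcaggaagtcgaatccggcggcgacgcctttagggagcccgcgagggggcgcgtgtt
SCD: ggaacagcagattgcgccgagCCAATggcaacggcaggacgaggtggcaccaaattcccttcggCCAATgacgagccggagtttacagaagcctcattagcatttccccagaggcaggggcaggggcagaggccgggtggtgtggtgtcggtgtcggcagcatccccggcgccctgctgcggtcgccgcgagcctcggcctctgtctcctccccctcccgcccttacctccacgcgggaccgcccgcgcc

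**Figure D3:**
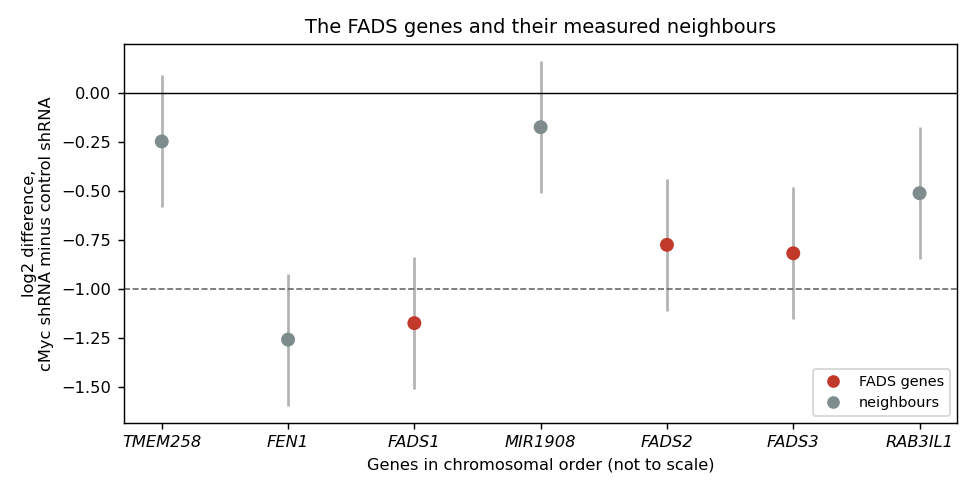
Log2 difference, cMyc shRNA minus control shRNA (vertical axis), of the FADS genes (red) and their measured neighbours (grey) in chromosomal order, which is not to scale; bars are ± the technical SD of 0.34 and the dashed line marks 2-fold lower. FEN1 at -1.26 and FADS1 at -1.17 lie below that line, and all 7 genes lie below 0.

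Elongation was split by enzyme. ELOVL5, which lengthens polyunsaturated chains, read 7.22 on the cMyc shRNA array and 7.87 on the control shRNA array, 1.57-fold lower. ELOVL6, which lengthens palmitate and related saturated and monounsaturated chains, read 6.90 with the cMyc shRNA and 7.54 with the control shRNA, 1.56-fold lower. These elongases act on the products of FADS2 and FASN, and their differences were -0.65 and -0.64. The fall of ELOVL6 was smaller than that of FASN at -1.68. ELOVL5 and FADS2, at -0.77, differed from each other by less than the technical SD. ELOVL1, an elongase of very long saturated chains, differed by -0.34. ELOVL4, which makes the very longest chains and is best known in retina and skin, read 5.48 with the cMyc shRNA and 5.24 with the control shRNA, 1.18-fold higher and within the technical SD. ELOVL7 differed by -0.11, and HSD17B12, the ketoacyl reductase of the elongation cycle, read 3.46 with the cMyc shRNA and 3.52 with the control shRNA, below the level filter. The ELOVL4 promoter (chr6:79947554-79947803, minus strand), from the second highest gene, holds an E-box 46 to 41 bases before the start between 2 CCAAT matches.
ELOVL4: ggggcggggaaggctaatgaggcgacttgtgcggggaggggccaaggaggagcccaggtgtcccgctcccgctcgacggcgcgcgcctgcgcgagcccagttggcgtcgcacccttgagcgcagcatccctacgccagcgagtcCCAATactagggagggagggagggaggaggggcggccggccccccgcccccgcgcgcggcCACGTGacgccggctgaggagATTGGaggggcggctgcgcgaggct

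Activation and use of fatty acids were sparsely covered. ACSL1, a long chain acyl-CoA synthetase, read 4.62 on the cMyc shRNA array and 5.25 on the control shRNA array, 1.55-fold lower. ACSL4, the isoform that prefers arachidonate, read 8.61 with the cMyc shRNA and 8.68 with the control shRNA, a difference of -0.07. The 2 measured synthetases therefore differed in size, and ACSL5 read 3.23 with the cMyc shRNA and 3.29 with the control shRNA, below the level filter. LPIN1, a phosphatidate phosphatase and the only measured gene of glycerolipid assembly, read 6.52 with the cMyc shRNA and 6.95 with the control shRNA, 1.35-fold lower. Over the 18 measured genes of fatty acid and glycerolipid synthesis the median was -0.56, beside -0.36 for the 12 sterol enzymes. The difference between these medians was not tested. Of the 18, 15 were below 0 and 9 at least 1.5-fold lower, where 51.3% and 11.9% of all measured genes were.

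Other genes of the pathways came from lists drawn up by function, with earlier results of these data known, so they are no independent check. Of 5 measured further genes of sterol synthesis all 5 were below 0, the median was -0.40 and 1 was at least 2-fold lower. Among all measured genes 51.3% were below 0 and 4.0% at least 2-fold lower. The 1 sterol synthesis gene past 2-fold was TMEM97, a sterol responsive membrane protein and not an established synthesis enzyme. It read 6.29 on the cMyc shRNA array and 7.89 on the control shRNA array, 3.03-fold lower. LBR was next lowest at -0.81, short of 2-fold, and ERG28, a scaffold of the sterol demethylation enzymes, was nearest to 0 at -0.26. Sterol uptake and transport had 8 measured genes and a median of 0.24. Past 2-fold were 1 gene downwards and 0 upwards, where 4.0% and 2.01% of all measured genes were. GRAMD1A, which moves plasma membrane cholesterol to the endoplasmic reticulum, was lowest, at 6.91 with the cMyc shRNA and 8.13 with the control shRNA. MYLIP, a ubiquitin ligase of sterol homeostasis, was highest, at 5.93 with the cMyc shRNA and 4.97 with the control shRNA, a difference of 0.96. Of these 8 genes 3 were below 0, beside 51.3% of all measured genes. Sterol efflux and ester genes had 3 measured members, from -0.34 for SOAT2 to -0.23 for APOE, and CH25H, the interferon induced cholesterol hydroxylase, read 2.76 with the cMyc shRNA and 2.91 with the control shRNA, below the level filter. Of the 2 measured further SREBP processing genes PAQR3 differed by -0.45 and RNF139 by 0.35. Further fatty acid synthesis genes had 6 measured members with a median of -0.22 and 0 past 2-fold either way, from HACD3, a dehydratase of the elongation cycle, at -0.49 to ACSF2 at 0.46.

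**Figure D4:**
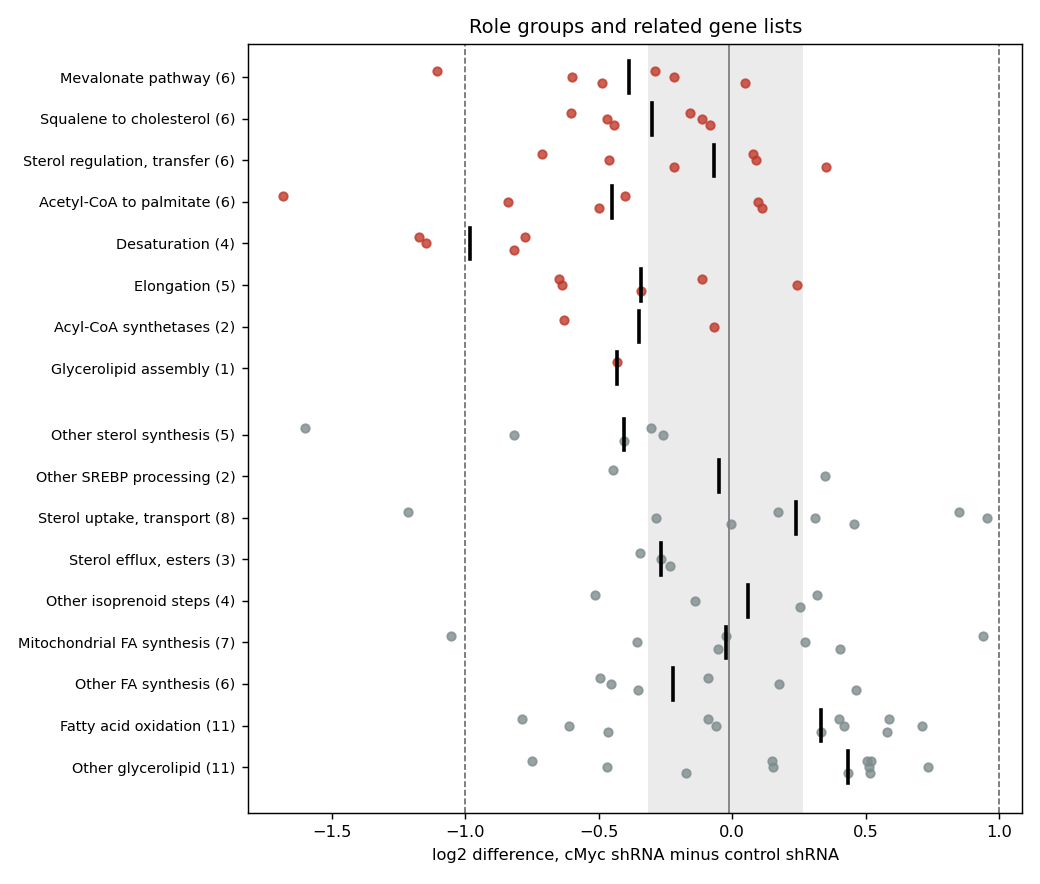
Log2 difference, cMyc shRNA minus control shRNA (horizontal axis), of each measured gene in the 8 roles (red) and in 9 lists of related genes (grey), with the number measured in brackets; black bars are medians, the grey band is the interquartile range of all 10258 measured genes, and dashed lines mark 2-fold. Desaturation lies farthest left with a median of -0.98, and sterol regulation is centred near 0.

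The promoters were compared as text, over the 250 bases before each RefSeq gene start. Of the 36 measured genes 34 had such a window and FASN and SQLE had none, and since some genes have several starts there were 51 windows, some of which overlap. CCAAT or its reverse complement stood in 26 of the 51 windows (51.0%), against 32.0% of the 35116 windows in the table and 32.7% of the windows of all measured genes. Counted by gene it stood before 10 of 11 sterol enzymes, with PMVK as the exception, and before 10 of 17 genes of fatty acid and glycerolipid synthesis, where 40.5% of the 7900 measured genes with a window had it. MVK and NSDHL had the most, with 5 matches in 1 window each. CACGTG stood in 4 of 51 windows (7.84%), those of SCAP, ELOVL5, ELOVL4 and INSIG1, against 6.34% of all windows and 8.14% of those of measured genes. Those 4 genes differed by -0.71, -0.65, 0.24 and 0.35 in that order. CACGTG thus stood in 2 of 18 windows of genes at least 1.5-fold lower and in 2 of 33 windows of the other measured genes. TCACNCCAC stood in 2 windows, those of SREBF2 and ACSL1 (3.92%), against 0.883% of all windows. Among genes at least 1.5-fold lower CCAAT stood in 8 of 18 windows, and among the other measured genes in 18 of 33. No match of one motif overlapped a match of another in these windows. A match is only a run of letters in the window and shows no binding.

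**Figure D5:**
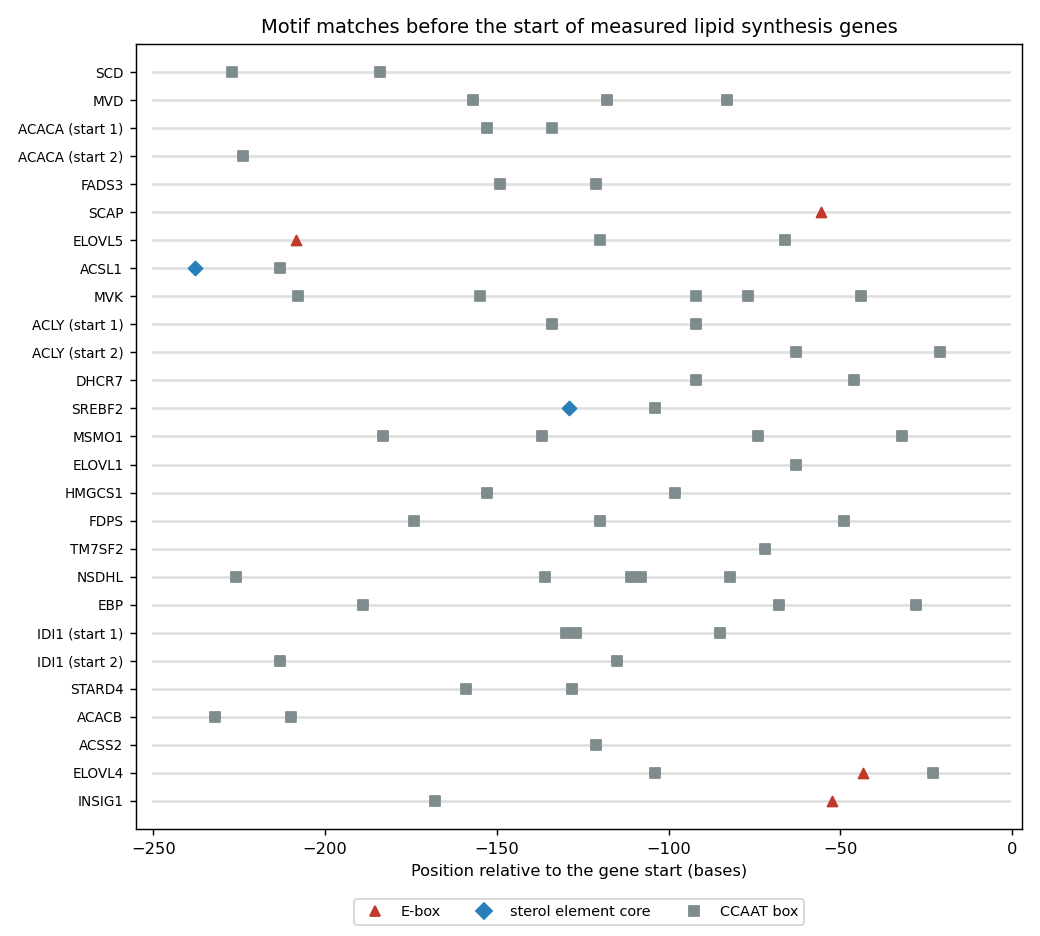
Positions of motif matches in bases before the gene start (horizontal axis) for the windows of measured genes that hold at least 1 match, ordered from the lowest log2 difference at the top to the highest at the bottom; squares are CCAAT boxes, triangles E-boxes and diamonds sterol element cores, on either strand. Squares occur over the whole order of genes, and the 4 triangles belong to SCAP, ELOVL5, ELOVL4 and INSIG1.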

How the data were processed

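The deposited table holds log2 expression values of 53617 probe sets on 2 arrays, made by the authors with Affymetrix Expression Console, per the submitters' processing notes; the sources used here do not give its version or its background correction, normalization and summarization. The log base was inferred from the range of 1.41 to 13.9, so folds assume base 2. There are no scanner intensities or detection calls, and precision is limited by having 1 array per group.

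GEO's platform annotation gave 1 symbol to 16098 probe sets, several to 0 and none to 37519. All 40 probe sets of the 46 genes carried the current RefSeq symbol (GRCh38.p14). Differences are cMyc shRNA minus control shRNA, counted by a fixed 2-fold rule with no test. Both arrays' values are given for those of the 46 genes measured at least 1.5-fold apart and for the farthest each way in a role. For related lists the farthest each way are named, some by their difference alone. Other named genes were chosen after their values were seen. Promoters shown were to be those of the 3 lowest and 2 highest genes. Members and lists were chosen with earlier results of these data known. A set of 7 alternatives was tried. The tools were statsmodels 0.14.6, pandas 2.3.3 and numpy 2.4.6 under Python 3.11.15, and the counting and motif search were tested on simulated data.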

Additional observations from a re-analysis of the deposited data

How the results depend on the processing

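Aligning the array medians, quantile normalization and loess each left FASN, FADS1, SCD and MVD as the 4 genes past 2-fold downwards, with 0 upwards, as did no level filter, a filter at the 75th percentile and the mean over probe sets. The median over the measured genes ran from -0.48 (array medians aligned) to -0.38 (quantile normalization), beside -0.06 and 0.00 for all measured genes under the same settings. Of the recomputed gene differences 110 could move, 108 of them by scaling; 0 changed sign, and the largest move was 0.17, for FDPS with the mean over its probe sets. Role medians, which rest on few genes each, moved more: at the 75th percentile filter the median was -0.25 for mevalonate, -0.44 for squalene to cholesterol, -0.67 for acetyl-CoA to palmitate and -0.64 for elongation (-0.34 as deposited). Sterol regulation ran from -0.12 to -0.03 over the scalings, and with no level filter acyl-CoA synthetases had -0.07 (-0.35 with it). The 1.5-fold rule moved the counts by construction, to 13 genes lower beside 1224 lower and 900 higher among all measured genes, and the 75th percentile filter, which keeps fewer genes, left 126 of all genes at least 2-fold higher. Of the calls over all genes, 66.6% were lower as deposited. No paired analysis was possible because each group had 1 array, and no setting could leave out a replicate.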

Other observations

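The lists of fatty acid oxidation and of other glycerolipid genes had medians above 0, where the 36 measured genes described above had one below it. The glycerolipid list itself holds synthesis genes, among them GPAT3 and CDS2, so this is no contrast of synthesis with use. These lists too were chosen with earlier results of these data known. Of 26 listed genes of fatty acid oxidation 15 had no named probe set and 11 were measured. Of these 11, 6 were above 0. Their median was 0.33, below the technical SD of 0.34 for a single difference, beside -0.01 for all measured genes. Below 0 were 45.5% of the 11, near the 51.3% of all measured genes. At 1.5-fold 2 were lower and 2 higher, where 11.9% and 8.77% of all measured genes were. None was past 2-fold either way, where 4.0% of all measured genes were lower and 2.01% higher. CPT2, the inner mitochondrial carnitine acyltransferase, was highest at 7.61 on the cMyc shRNA array and 6.90 on the control shRNA array, although its second probe set differed by -0.18. CPT1A, the outer membrane carnitine acyltransferase that admits fatty acids to the mitochondrion, was lowest, at 6.44 with the cMyc shRNA and 7.22 with the control shRNA. CPT1C, a related isoform, read 4.74 with the cMyc shRNA and 4.15 with the control shRNA.

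Other glycerolipid genes had 11 measured members, 8 above 0, with a median of 0.43. Below 0 were 27.3% of them, beside 51.3% of all measured genes. At 1.5-fold 1 was lower and 1 higher, where 11.9% and 8.77% of all measured genes were. None was past 2-fold either way, where 4.0% of all measured genes were lower and 2.01% higher. CDS2, which makes CDP-diacylglycerol, read 7.30 with the cMyc shRNA and 6.57 with the control shRNA, and GPAT3, an acyltransferase of the first step, read 6.33 with the cMyc shRNA and 7.08 with the control shRNA. Mitochondrial fatty acid synthesis, which feeds lipoic acid, had 7 measured genes with a median of -0.02. Of these 1 was at least 2-fold lower, where 4.0% of all measured genes were. LIAS, lipoic acid synthase, differed by -1.05 and LIPT2, the transferase that precedes it, by 0.94. The 4 measured further isoprenoid genes ran from -0.51 for ICMT, the methyltransferase of prenylated proteins, to 0.32 for ZMPSTE24, a protease of prenylated lamin A. None of these differences was tested.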
